A study of Mus musculus with 9 samples.

Results

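The genes described here are those of MHC class II antigen presentation: H2-Aa, H2-Ab1, H2-Eb1, H2-DMa, H2-DMb1, H2-Oa, Cd74, Ciita, Cd80 and Cd86. They were taken by gene symbol, each represented by the probe set that names it alone and has the highest mean over the 9 arrays. Of these 10 genes, 9 had such a probe set, out of 19938 genes in all. H2-DMb1 had none, because its only probe set is shared with H2-DMb2, and no value is given for it. The arrays, Affymetrix Mouse Gene 1.0 ST, measured nasal mucosa RNA of BALB/c mice labelled male and 6 to 8 weeks old, with 3 arrays in each of 3 groups. Mice of the 4-week group were sensitised and challenged with ovalbumin, the egg white protein that served as allergen, and tissue was taken 4 weeks after the last challenge. The OVA group was treated alike, with tissue taken 2 hours after the last challenge. The control group received saline for both steps. As the age label is the same in all 3 groups, age at tissue collection may differ between them. Allergen avoidance in a mouse model of allergic rhinitis is the subject given in the title, and the comparisons address the tissue soon after exposure and after a period without it.

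MHC class II molecules display peptides of engulfed proteins, such as inhaled allergens, to CD4+ T cells. An alpha and a beta chain assemble with the invariant chain CD74 and travel to endosomes, where proteases digest CD74 and the DM protein helps to exchange its last fragment for antigen peptide, while the DO protein restrains DM. The promoters of these genes share a conserved arrangement of short boxes bound by RFX, CREB and NF-Y proteins, on which the coactivator CIITA acts. CD80 and CD86 on the presenting cell bind CD28 and CTLA-4 on the T cell. In airway mucosa, dendritic cells, macrophages and B cells are the main class II positive cells, and epithelial cells can carry the molecules when stimulated.

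Promoter windows of 300 bases, from 250 before to 50 after the gene start, were found in RefSeq (GRCm38.p6, C57BL/6J) for 6 of the 10 genes. They are shown because H2-Aa and H2-Eb1 varied together over the arrays, as described below. H2-Oa and H2-DMa did not follow them among the arrays labelled control, but were also lowest of their group in OVA replicate 2. The signal of H2-Oa was low, with 16.4% of tested probe sets at or below its mean. As 6 of its 9 arrays carried 1 value, a shared pattern could hardly show in it. BALB/c mice carry another H2 haplotype than the reference, so their own bases can differ. Capitals mark the X box core GNAAC and the Y box core GATTGG where the second starts 29 to 32 bases after the first, a spacing chosen after these windows had been read. Both strands were searched, and the boxes do not overlap.
H2-Aa, chr17:34287774-34288073, minus strand: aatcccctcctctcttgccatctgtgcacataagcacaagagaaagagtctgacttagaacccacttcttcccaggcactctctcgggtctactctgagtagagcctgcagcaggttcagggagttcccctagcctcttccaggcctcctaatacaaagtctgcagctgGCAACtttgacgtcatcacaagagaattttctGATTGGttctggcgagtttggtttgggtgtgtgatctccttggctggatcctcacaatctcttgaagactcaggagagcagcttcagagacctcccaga
H2-Eb1, chr17:34305617-34305916, plus strand: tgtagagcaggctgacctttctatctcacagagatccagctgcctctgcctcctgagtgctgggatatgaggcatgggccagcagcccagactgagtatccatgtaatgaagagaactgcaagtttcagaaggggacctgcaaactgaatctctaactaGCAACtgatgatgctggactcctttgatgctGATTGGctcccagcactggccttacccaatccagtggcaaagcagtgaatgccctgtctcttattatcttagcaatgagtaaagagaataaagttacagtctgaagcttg
H2-Oa, chr17:34092129-34092428, plus strand: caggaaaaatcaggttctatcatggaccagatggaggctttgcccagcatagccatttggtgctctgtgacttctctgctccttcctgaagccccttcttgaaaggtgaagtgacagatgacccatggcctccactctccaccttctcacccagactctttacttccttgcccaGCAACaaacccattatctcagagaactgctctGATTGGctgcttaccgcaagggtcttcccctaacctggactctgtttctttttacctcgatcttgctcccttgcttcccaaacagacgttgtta
H2-DMa, chr17:34122582-34122881, plus strand, the first of 2 windows: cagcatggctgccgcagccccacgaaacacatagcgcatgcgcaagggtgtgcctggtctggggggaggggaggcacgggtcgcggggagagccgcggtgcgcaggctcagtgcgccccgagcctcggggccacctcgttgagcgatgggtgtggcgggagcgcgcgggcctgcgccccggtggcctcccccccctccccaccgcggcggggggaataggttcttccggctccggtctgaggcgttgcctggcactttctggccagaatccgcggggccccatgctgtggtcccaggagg
The pair stood in the windows of H2-Aa, H2-Eb1, H2-Oa and H2-DMb1, in each case upstream of the gene start on the coding strand, with the X box 76 to 94 bases before it. It was not in the window of Cd80 or in either window of H2-DMa, and the second H2-DMa window held GATTGG alone. Any start of H2-DMa outside these windows was not searched, so the gene cannot be said to lack the pair. Of the 3 other class II genes with a window, H2-Ob and H2-Eb2 held the pair and H2-DMb2 did not. Over all 32851 mouse promoter windows of this length, 0.234% held the pair and 16.1% held GATTGG on either strand.

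All values are log2 expression as the authors deposited it, so that 1 unit is a 2-fold difference. The array medians lay between 6.38 and 6.45, and arrays correlated across probe sets at r = 0.986 to 0.992 within groups and 0.973 to 0.988 between them. The 3 arrays labelled control do not match their label in sex-linked transcripts. Xist, a noncoding RNA of X inactivation, averaged 4.33 ± 0.08 in the 4-week arrays, 4.29 ± 0.07 in the OVA arrays and 10.81 ± 0.26 in the arrays labelled control (SD, n = 3 each). The Y-linked Eif2s3y averaged 8.25, 8.28 and 3.31 in the same groups. Both comparisons with the arrays labelled control therefore differ in sex pattern as well as in treatment, and these cannot be told apart, while the 4-week and OVA arrays share a pattern. Of the 12 nasal epithelium and olfactory markers, all except Bpifb9a lay above 6.45, the highest array median, on every array. Bpifb9a, a secreted protein of nasal glands, had 9.89, 7.74 and 8.33 in the 4-week arrays, 5.12, 5.82 and 8.21 in the OVA arrays and 9.87, 11.57 and 12.10 in the arrays labelled control. Nothing in the labels ties an array to an animal of its own. The p-values therefore reflect the spread among these arrays alone, and that spread may be technical.

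The genes of the peptide-binding chains and the invariant chain varied widely among the arrays labelled control and little among the 4-week arrays. H2-Aa, the alpha chain of the I-A molecule, had 7.85, 7.88 and 7.92 in the 4-week arrays, 8.05, 7.11 and 7.82 in the OVA arrays and 8.55, 7.66 and 6.90 in the arrays labelled control. The 4-week arrays lay almost on top of each other, and both other groups spread on either side of them. The highest array labelled control held 3.14-fold the signal of the lowest, against 1.92-fold among the OVA arrays and 1.05-fold among the 4-week arrays. Cd74, the invariant chain, had 8.06, 8.16 and 8.20 in the 4-week arrays, 8.63, 7.99 and 8.31 in the OVA arrays and 8.30, 7.51 and 6.78 in the arrays labelled control. Its lowest array labelled control was 2.86-fold below the highest, and the highest lay within the range of the OVA arrays.

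H2-Eb1, the beta chain of the I-E molecule, had 7.29, 7.18 and 7.37 in the 4-week arrays, 7.73, 7.30 and 7.38 in the OVA arrays and 7.91, 7.30 and 7.04 in the arrays labelled control. The groups overlapped throughout, and the arrays labelled control again spanned all others. H2-Ab1, the beta chain that pairs with H2-Aa, had 7.47, 7.43 and 7.54 in the 4-week arrays, 7.55, 7.28 and 7.68 in the OVA arrays and 7.39, 6.98 and 6.74 in the arrays labelled control. All 3 of its 4-week arrays were above all arrays labelled control, while the OVA arrays overlapped both groups. H2-Ea, the alpha chain of I-E and not among the 10 genes, ran alongside, with 8.80, 8.87 and 9.09 in the 4-week arrays, 9.21, 8.39 and 8.80 in the OVA arrays and 9.25, 8.33 and 7.68 in the arrays labelled control.

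**Figure D1:**
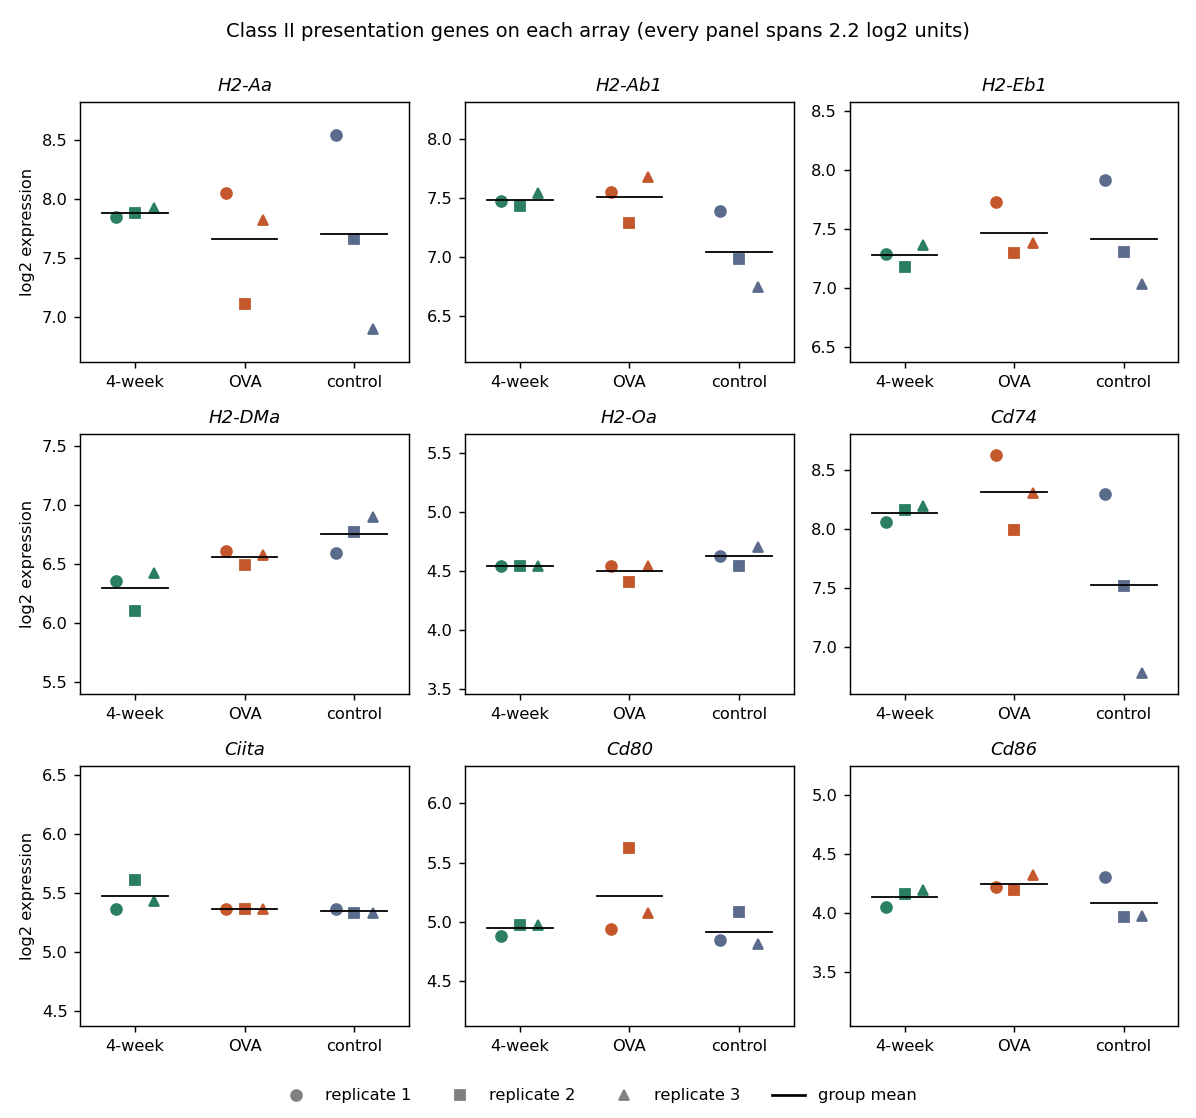
Log2 expression (vertical axis) of the 9 measured class II presentation genes on each array, by group from left to right, with a marker shape per replicate and a bar at the group mean. In H2-Aa and Cd74 the arrays labelled control spread from 8.55 to 6.90 and from 8.30 to 6.78, and in H2-DMa the 4-week arrays lie below both other groups.

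The same arrays were high or low for all 5 of these genes. In each of H2-Aa, H2-Ab1, H2-Eb1, Cd74 and H2-Ea the first array labelled control was the highest of its group and the third the lowest, an order that 18.3% of the 23410 tested probe sets had. OVA replicate 2 was the lowest OVA array for all 5, as it was for 22.1% of the tested probe sets, and 5.41% had both orders. Other genes with both orders included B2m of class I presentation, the endosomal proteases Ctsl and Ctsd, and the macrophage markers Cd68 and Csf1r. For the same 5 genes the SD of the 4-week arrays was below that of both other groups, which held for 30.8% of the tested probe sets. These shares are given as a description, since the orders were read from these same 5 genes. The genes were also not chosen independently of each other.

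Among the arrays labelled control, the spread of these genes was large for the platform. H2-Aa had an SD of 0.83 there, H2-Ea of 0.79 and Cd74 of 0.76, against a median of 0.11 over all tested probe sets. Only 0.256% of the probe sets had an SD at least as large as that of H2-Aa, 0.295% as that of H2-Ea and 0.342% as that of Cd74. H2-Eb1 (0.45) and H2-Ab1 (0.33) followed, with 2.09% and 5.44% of the probe sets at least as variable. Among the 4-week arrays the SDs were 0.04 for H2-Aa, 0.07 for Cd74, 0.10 for H2-Eb1 and 0.05 for H2-Ab1, all below that group's median of 0.11. H2-Ea was above it at 0.15, with 33.6% of the probe sets at least as variable. In the OVA arrays H2-Aa (0.49) and Cd74 (0.32) were again among the more variable probe sets, with 2.11% and 5.54% at least as variable.

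**Figure D2:**
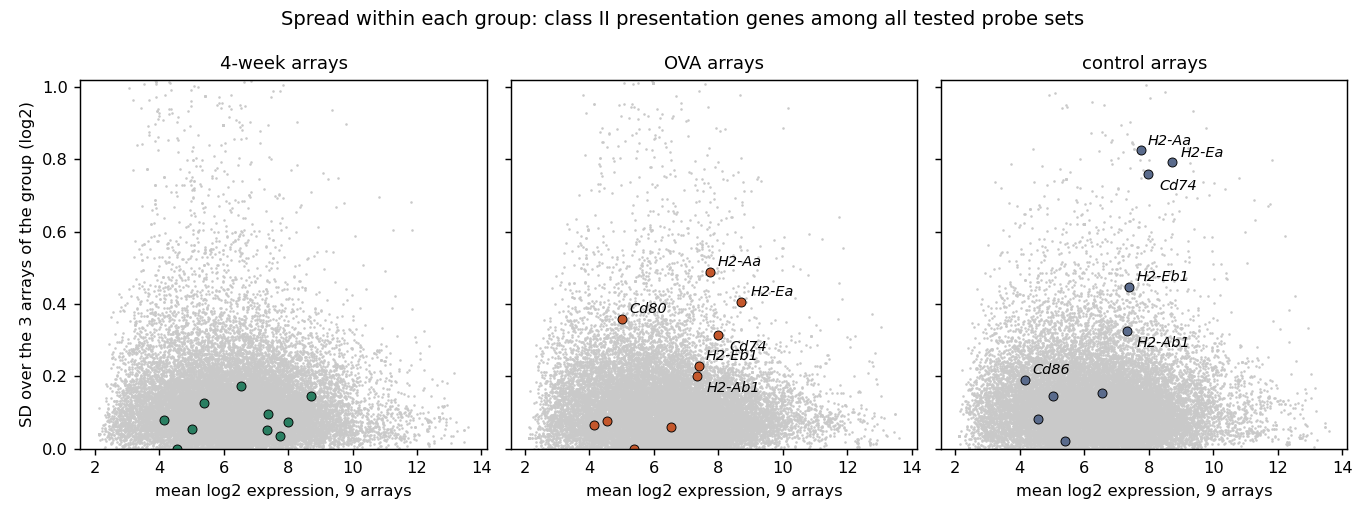
SD over the 3 arrays of a group (vertical axis, log2) against the mean log2 expression over the 9 arrays (horizontal axis), with every tested probe set in grey and the 9 genes and H2-Ea as coloured points, for the 4-week, OVA and control arrays; 92, 65 and 31 probe sets lie above the top of the 3 panels. H2-Aa, H2-Ea and Cd74 stand at 0.83, 0.79 and 0.76 among the arrays labelled control, while the 4-week panel has its highest coloured point, H2-DMa, at 0.17.

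Soon after the challenge, none of the 9 genes passed the test against the arrays labelled control. The largest difference was that of Cd74, 1.72-fold higher in the OVA arrays (log2 change 0.78, 95% interval 0.05 to 1.51, adjusted p = 0.28 in limma, Benjamini-Hochberg over all 23410 probe sets). H2-Ab1 was 1.38-fold higher (0.46, interval 0.10 to 0.82, adjusted p = 0.197), and these 2 were the only ones of the 9 with an unadjusted p under 0.05. Of all tested probe sets, 16.4% had such a p and 1.3% passed, 0.782% higher and 0.521% lower. H2-Aa had −0.04 (interval −0.88 to 0.81) and H2-Eb1 0.05 (−0.41 to 0.52), and their intervals leave room for differences in either direction. The median over the 9 genes was 0.05, beside −0.02 over all tested probe sets, with 6 of 9 above 0. In none of the 9 were the OVA arrays clear of the arrays labelled control, which they were in 21.5% of all tested probe sets, higher in 10.4% and lower in 11.1%. In such whole-tissue RNA, fewer cells of a type and less RNA per cell cannot be told apart. Without the first array labelled control, the log2 changes were 1.16 for Cd74 (adjusted p = 0.0749) and 0.64 for H2-Ab1 (adjusted p = 0.071). Without the third they were 0.40 for Cd74 (adjusted p = 0.481) and 0.32 for H2-Ab1 (adjusted p = 0.369).

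At 4 weeks, compared with the OVA arrays, again none of the 9 genes passed, while 6.33% of all tested probe sets did, 3.81% higher and 2.51% lower. The changes lay between −0.27 for Cd80 and 0.22 for H2-Aa, with a median of −0.11, beside −0.02 over all tested probe sets. H2-Ab1 had −0.02 (interval −0.38 to 0.34), Cd74 −0.17 (−0.90 to 0.56), H2-Eb1 −0.19 (−0.65 to 0.27) and H2-Aa 0.22 (−0.63 to 1.06). The intervals of H2-Aa and Cd74 are the widest of the 9. H2-DMa was the only gene whose 4-week arrays all lay below the OVA arrays, which was so for 13.7% of the tested probe sets, while 28.1% did not overlap in either direction and 14.5% were higher without overlap. It was also the only one with an unadjusted p under 0.05, as 23.9% of all probe sets had. Its log2 change was −0.26 (interval −0.50 to −0.02, adjusted p = 0.174).

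H2-DMa gave the only call. It encodes the alpha chain of DM, which exchanges peptides on class II molecules. It had 6.36, 6.10 and 6.43 in the 4-week arrays, 6.61, 6.49 and 6.57 in the OVA arrays and 6.60, 6.77 and 6.90 in the arrays labelled control. The 4-week arrays were below every other array, and the OVA arrays overlapped the arrays labelled control. Between the 4-week arrays and those labelled control, H2-DMa fell by 0.46 on the log2 scale, which is 1.37-fold (SE 0.11, interval −0.70 to −0.22, adjusted p = 0.0242). In OVA arrays it had −0.20 against the arrays labelled control (interval −0.44 to 0.04, adjusted p = 0.396). Within the arrays labelled control its order was the opposite of that of the chain genes, with the first array lowest and the third highest. Within the OVA and the 4-week arrays its order was that of H2-Eb1, with OVA replicate 2 again the lowest of its group. The call was lost without 4-week replicate 2 (adjusted p = 0.0708), control replicate 2 (0.0704) or control replicate 3 (0.0718), and when only the 2 compared groups were fitted (0.0607).

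The other 8 genes did not pass between the 4-week arrays and those labelled control. Cd74 was 1.52-fold higher (log2 change 0.61, interval −0.12 to 1.34, adjusted p = 0.222) and H2-Ab1 1.36-fold higher (0.44, interval 0.08 to 0.80, adjusted p = 0.0923), while H2-Aa had 0.18 and H2-Eb1 −0.14. Of the 9 genes, 1 was called lower, where 14.4% of all tested probe sets were called, 7.92% higher and 6.45% lower. H2-DMa and H2-Ab1 had an unadjusted p under 0.05, as did 32.9% of the probe sets. Groups did not overlap for H2-Ab1, higher, and H2-DMa, lower, and groups were apart in 35% of the probe sets, higher in 16.6% and lower in 18.4%. The median of the 9 was 0.06, beside −0.04 over all tested probe sets. Without control replicate 1, both H2-Ab1 (0.62, adjusted p = 0.0241) and Cd74 (0.99, adjusted p = 0.0361) passed and 3 genes were called, and without control replicate 3 Cd74 had 0.23 (adjusted p = 0.562).

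**Figure D3:**
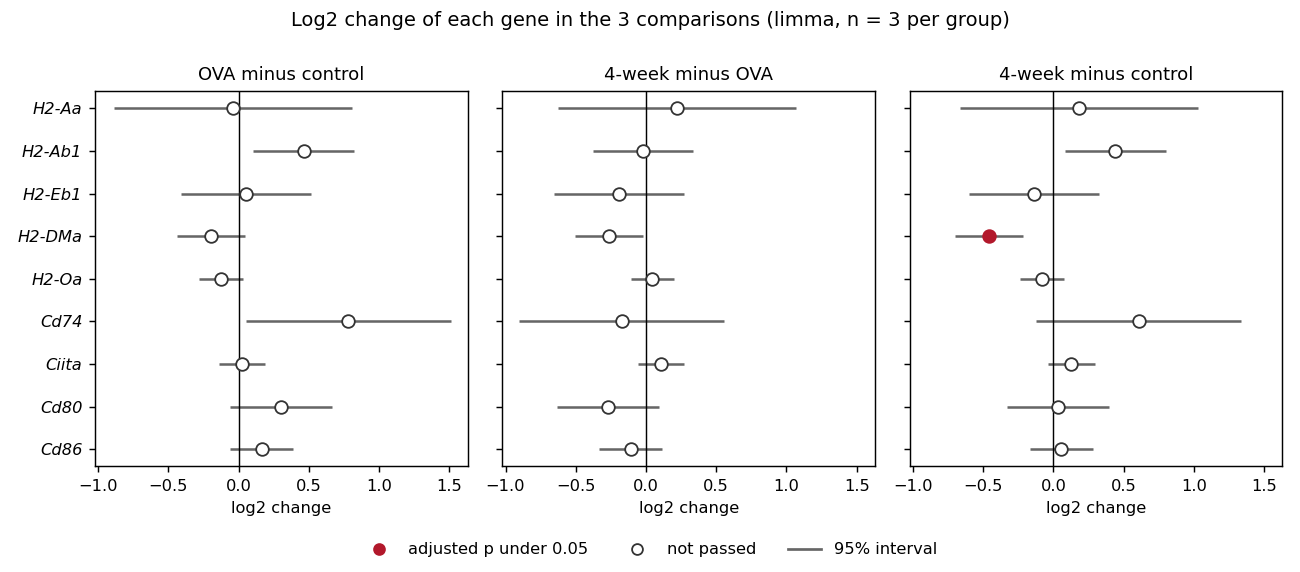
Log2 change (horizontal axis) of each gene in the 3 comparisons, with its 95% interval from limma; filled points have an adjusted p under 0.05. H2-DMa between the 4-week arrays and those labelled control, at −0.46, is the only filled point, and the intervals of H2-Aa and Cd74 span over 1 log2 unit.

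The remaining genes were at low signal, and among them Ciita and H2-Oa were nearly level. Of the tested probe sets, 29.8% had a mean at or below that of Ciita, 16.4% of H2-Oa, 23.3% of Cd80 and 11.4% of Cd86. Without detection calls, a level value at such signal cannot be read as stable expression. Ciita, the coactivator of class II transcription, had 5.37, 5.62 and 5.44 in the 4-week arrays, 5.37 in all 3 OVA arrays and 5.37, 5.33 and 5.33 in the arrays labelled control. Its changes were 0.02 after the challenge (interval −0.14 to 0.19), 0.10 between 4 weeks and OVA and 0.13 between 4 weeks and the arrays labelled control (−0.04 to 0.29), with adjusted p of 0.25 or more. H2-Oa, the alpha chain of the DM inhibitor DO, had 4.54 on each 4-week array, 4.54, 4.41 and 4.54 on the OVA arrays and 4.62, 4.54 and 4.71 on the arrays labelled control. Its changes ran from −0.13 to 0.04. For Ciita 5 arrays, and for H2-Oa 6 arrays, carried the same deposited value to 6 decimals, as did at least 2 arrays in 52.1% of all tested probe sets. An SD of 0 among these arrays therefore says little about their spread.

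Cd80 and Cd86, the ligands of CD28, did not pass in any comparison. Cd80 had 4.88, 4.97 and 4.97 in the 4-week arrays, 4.94, 5.62 and 5.08 in the OVA arrays and 4.85, 5.08 and 4.81 in the arrays labelled control. OVA replicate 2, the lowest OVA array of the chain genes, was the highest of all 9 arrays here, and without it the OVA change of 0.30 (adjusted p = 0.388) was 0.10. A second Cd80 probe set also had its highest value there, with 4.81, 4.87 and 5.17 in the 4-week arrays, 4.93, 5.28 and 4.98 in the OVA arrays and 4.88, 4.88 and 4.93 in the arrays labelled control. Cd86 had 4.05, 4.16 and 4.20 in the 4-week arrays, 4.22, 4.19 and 4.32 in the OVA arrays and 4.30, 3.96 and 3.98 in the arrays labelled control. Its changes were 0.16 after the challenge (interval −0.06 to 0.39), −0.11 between 4 weeks and OVA and 0.06 between 4 weeks and the arrays labelled control.

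Other genes of the pathway were read from lists chosen by function. Of the other class II genes, 3 of 4 were measured and none passed in any comparison. H2-Ea had 0.38 after the challenge (interval −0.41 to 1.18) and 0.50 between 4 weeks and the arrays labelled control (−0.29 to 1.30, adjusted p = 0.345). H2-Ob, the beta chain of DO, had −0.22 between 4 weeks and the arrays labelled control (adjusted p = 0.0875). Its 4-week arrays were all below those labelled control, as in 18.4% of all tested probe sets. None of the 7 RFX, NF-Y and CREB genes passed, and their changes over the 3 comparisons ran from −0.13 to 0.19, the extremes being the NF-Y subunits Nfyc and Nfya after the challenge. Among 8 endosomal proteases and helpers of antigen processing none passed, with medians of 0.31 after the challenge, −0.22 between 4 weeks and OVA and −0.02 between 4 weeks and the arrays labelled control. Ctsd, cathepsin D, had 0.38 at 4 weeks against the arrays labelled control (adjusted p = 0.053), and Ctsl, cathepsin L, −0.59 at 4 weeks against OVA (adjusted p = 0.0988). Ctss, cathepsin S, which cuts the invariant chain, was picked out after its values were seen. It had 6.67, 6.85 and 6.66 in the 4-week arrays, 8.07, 6.72 and 8.45 in the OVA arrays and 7.25, 6.89 and 6.06 in the arrays labelled control (OVA minus control 1.01, adjusted p = 0.287), with OVA replicate 2 again the lowest of its group.

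Interferon gamma is the best known inducer of CIITA, and some genes of its pathway passed the test. Ifngr2, a chain of its receptor, had 8.92, 8.92 and 8.78 in the 4-week arrays, 9.24, 9.41 and 9.26 in the OVA arrays and 8.70, 8.66 and 8.37 in the arrays labelled control. Its groups did not overlap in any pair. This held in 21.5% of tested probe sets for OVA and control, 28.1% for 4 weeks and OVA and 35% for 4 weeks and control. Ifngr2 rose by 0.73 in OVA arrays over those labelled control (adjusted p = 0.016) and fell by 0.43 at 4 weeks relative to OVA (adjusted p = 0.0388). Jak2, the kinase on that chain, rose after the challenge (0.46, adjusted p = 0.0375) and at 4 weeks (0.43, adjusted p = 0.0119), each against the arrays labelled control. Ifngr1, the ligand-binding chain, rose at 4 weeks against the arrays labelled control (0.48, adjusted p = 0.0162). In this list of 9 measured genes, 2 were called higher and none lower after the challenge, 1 lower and none higher between 4 weeks and OVA, and 2 higher and none lower between 4 weeks and the arrays labelled control. Over all tested probe sets 1.3%, 6.33% and 14.4% were called in these comparisons, and no difference between this list and other genes was tested. Ifng itself, picked out after its values were seen, did not pass. It had 0.05 after the challenge (adjusted p = 0.804) and −0.27 between 4 weeks and OVA (adjusted p = 0.0641). Its signal was low, with 21.5% of tested probe sets at or below its mean, so a level value cannot be read as stable expression. Of the other genes in the list, Irf1 had 0.65 after the challenge (adjusted p = 0.185) and Irf8 0.12 (adjusted p = 0.702). Socs1 had 0.13 (adjusted p = 0.672) and Cxcl9 −0.04 (adjusted p = 0.953). None of these passed in any comparison. With single arrays left out, every called change of Ifngr2, Jak2 and Ifngr1 kept its direction and a similar size. It was between 0.40 and 0.53 for Jak2 after the challenge and between −0.46 and −0.38 for Ifngr2 between 4 weeks and OVA. The adjusted p of these called changes stayed under 0.05 in 1 of 9 such fits for Jak2 after the challenge and in 2 for Ifngr2 between 4 weeks and OVA. It did so in 8 each for Ifngr2 after the challenge and Ifngr1, and in 9 for Jak2 at 4 weeks.

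None of the other costimulatory and coinhibitory ligands (9 measured) passed, and their medians were 0.13, −0.11 and −0.09 for OVA against control, 4 weeks against OVA and 4 weeks against control. Cd276 had −0.25 after the challenge (adjusted p = 0.164) and Tnfsf4, the OX40 ligand, −0.20 at 4 weeks against the arrays labelled control (adjusted p = 0.116). None of the 5 T cell receptors for CD80, CD86, ICOS ligand or class II passed, the largest change being 0.35 for Ctla4 after the challenge (adjusted p = 0.325), with 0.23 for Icos. In class I presentation, which displays peptides of the cell's own proteins, 9 of 11 genes were measured and none passed. Their medians were −0.09, −0.14 and −0.20 in the same order, and the immunoproteasome subunits Psmb8 and Psmb10 had −0.42 (adjusted p = 0.0535) and −0.36 (adjusted p = 0.0817) between 4 weeks and the arrays labelled control. B2m was picked out after its values were seen. It was highest in control replicate 1 (11.56) and lowest in control replicate 3 (10.56) and OVA replicate 2 (10.60) of their groups. Its SD among the arrays labelled control was 0.51, and 1.43% of the tested probe sets were at least as variable.

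**Figure D4:**
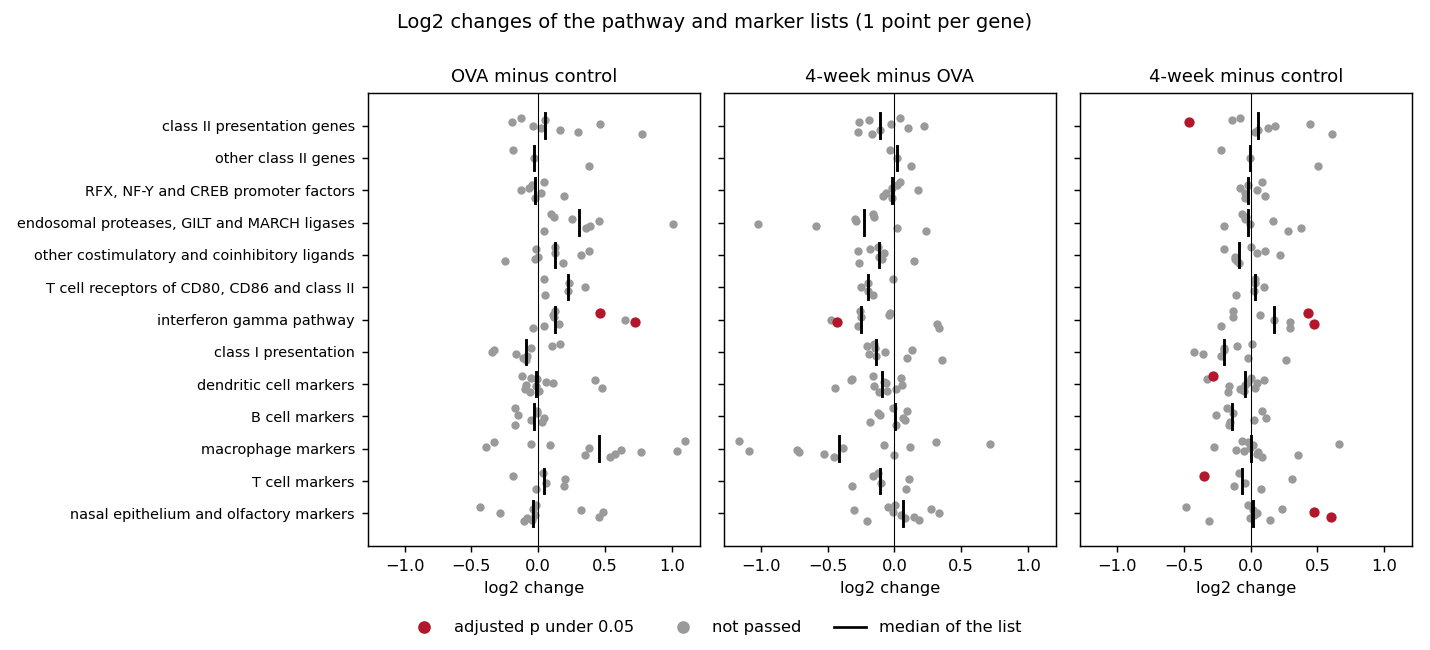
Log2 changes (horizontal axis) in the 3 comparisons for each list of pathway genes and cell type markers, 1 point per measured gene, with red points for an adjusted p under 0.05 and a bar at each list's median; Bpifb9a is left out of the points because its changes exceed the axis. The interferon gamma list holds red points in every comparison, while the class II list holds 1, H2-DMa at −0.46.

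Markers of some cell types that carry class II molecules moved with some of these values, and so did the mean of the T cell markers. Their part in the results was not tested. The mean log2 level of 12 macrophage markers was 6.61 to 6.75 in the 4-week arrays, 6.53 to 7.29 in the OVA arrays and 6.30 to 6.84 in the arrays labelled control. It was lowest in OVA replicate 2 (6.53, against 7.15 and 7.29 on the other two OVA arrays) and in control replicate 3, the arrays that were lowest in their groups for the chain genes. None of the 12 passed, with medians of 0.46 after the challenge, −0.42 between 4 weeks and OVA and 0.00451 between 4 weeks and the arrays labelled control. C1qc, a complement component made by macrophages, had 0.77 after the challenge (adjusted p = 0.147) and Cx3cr1, the fractalkine receptor, −0.39 (adjusted p = 0.0947). OVA replicates 1 and 3 held the highest macrophage levels of all arrays, and the 4-week arrays lay within the range of the arrays labelled control.

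The mean of the 12 dendritic cell markers was 5.13 to 5.24 in the 4-week arrays, 5.22 to 5.43 in the OVA arrays and 5.21 to 5.33 in the arrays labelled control, with medians of −0.01, −0.10 and −0.04 in the 3 comparisons. This mean was also lowest of its groups in OVA replicate 2 (5.22) and control replicate 3 (5.21). Its highest array labelled control was replicate 2 (5.33). Single markers varied more than this mean. Itgax, the integrin chain CD11c, had 5.36, 5.61 and 5.82 in the 4-week arrays, 5.98, 5.43 and 6.36 in the OVA arrays and 5.61, 5.59 and 5.30 in the arrays labelled control. It was picked out after its values were seen, and its OVA SD of 0.47 was near that of H2-Aa (0.49). Itgax, Cd209a and Siglech shared the chain genes' order. Each was highest in control replicate 1 and lowest in control replicate 3 and OVA replicate 2 of its group. Siglech differed little among the arrays labelled control (SD 0.02). Most of the 12 markers did not share this order. Flt3 was lowest in control replicate 1 and highest in control replicate 3. Ccr7, Batf3, Itgae and Clec10a were highest in control replicate 2 of that group, and Itgae was highest in OVA replicate 2 of its group. Zbtb46, a transcription factor of classical dendritic cells, fell by 0.28 between 4 weeks and the arrays labelled control (adjusted p = 0.0471), a call that stood in 1 of 9 fits without an array. Cd209a had 0.48 after the challenge and −0.44 between 4 weeks and OVA (adjusted p = 0.164 and 0.112). For 8 of 9 B cell markers measured, the mean was 4.80 to 4.83 in the 4-week arrays, 4.72 to 4.97 in the OVA arrays and 4.84 to 4.96 in the arrays labelled control, and none passed. The B cell mean was lowest in OVA replicate 2, but in control replicate 2 (4.84) and not 3 (4.90). The B cell transcription factor Pax5 had −0.18 and the complement receptor Cr2 −0.26 between 4 weeks and the arrays labelled control (adjusted p = 0.107 and 0.128).

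T cell markers, of which 6 of 8 were measured, had a mean of 5.07 to 5.18 in the 4-week arrays, 5.08 to 5.33 in the OVA arrays and 5.03 to 5.28 in the arrays labelled control. This mean had the chain genes' order, highest in control replicate 1 and lowest in control replicate 3 and OVA replicate 2 of their groups. Of the single markers, only Cd3e and Cd3g had it, and Cd3g ranged over 0.91 log2 units among the arrays labelled control. Cd8a was highest in control replicate 3 of that group, and Cd2 and Cd5 were highest in OVA replicate 2 of theirs. Cd3d was nearly flat among the arrays labelled control. Cd5 fell by 0.35 between 4 weeks and the arrays labelled control (adjusted p = 0.0232), a call that stood in 5 of 9 fits without an array, while Cd3d had −0.31 between 4 weeks and OVA (adjusted p = 0.201). Of 12 markers of nasal epithelium and olfactory neurons, the epithelial genes Epcam (0.60, adjusted p = 0.00792) and Krt18 (0.48, adjusted p = 0.017) rose between 4 weeks and the arrays labelled control, both in 9 of 9 fits without an array. After the challenge, Bpifb9a fell by 4.80 on the log2 scale, which is 27.8-fold (adjusted p = 0.0415). Without single arrays its change was −5.71 to −4.16, and the call stood in 3 of 9 fits. No marker of these 2 lists passed between 4 weeks and OVA.

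**Figure D5:**
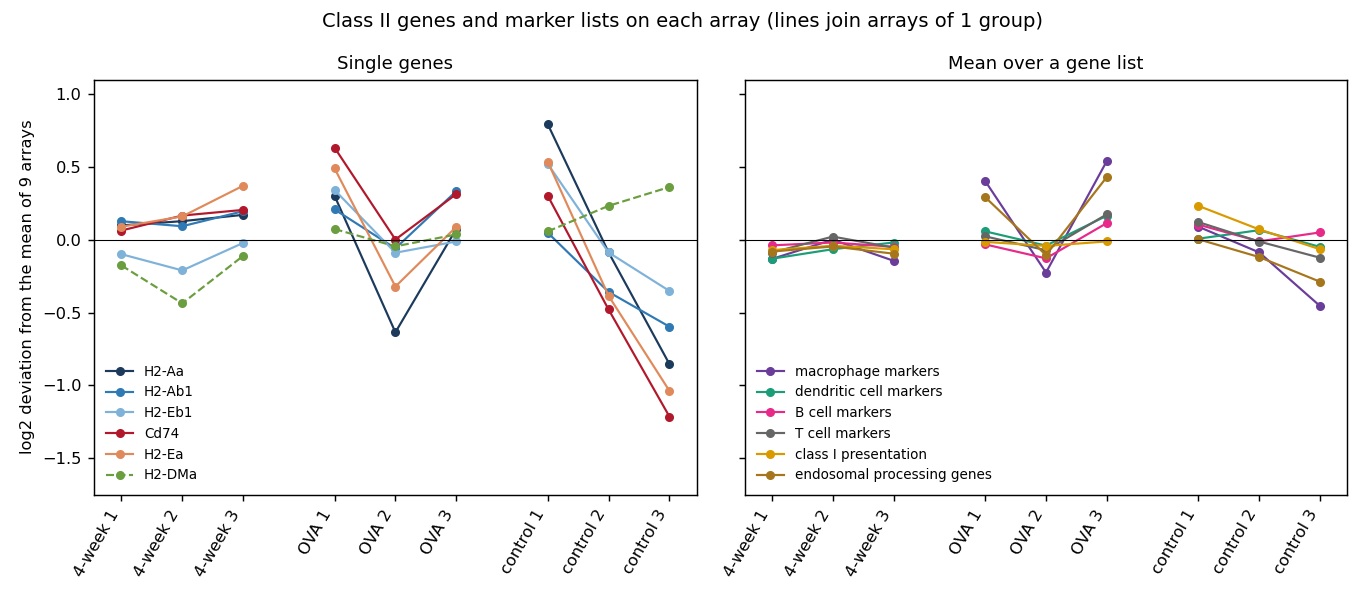
Log2 deviation from the mean over the 9 arrays (vertical axis) on each array (horizontal axis), for single class II genes on the left and for the mean of each marker or pathway list on the right; lines join arrays of 1 group and imply no order. The 5 chain and invariant chain genes fall together in OVA replicate 2 and control replicate 3, and H2-DMa is highest in control replicate 3. The macrophage, dendritic cell, T cell, class I and endosomal processing lists are also lowest of their groups in OVA replicate 2 and control replicate 3.

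Over the 9 arrays, the genes whose pattern was most like that of the mean of H2-Aa, H2-Ab1, H2-Eb1 and Cd74 were Glipr1, Tmem176a, Unc93b1, Tmem176b, Hpse, Crip1, H2-Ea, Myadm, Ms4a7 and Snap23. Likeness was the root mean square distance between the profiles, each minus its own mean, among 5589 genes whose SD over the arrays was at least 0.5 times that of the mean profile. The distance was 0.08 log2 units for Glipr1, 0.12 for Tmem176a and 0.16 for H2-Ea, and 0.17 for Snap23, the tenth, beside a median of 0.41 over the 5589 genes. Unc93b1 is a chaperone of endosomal Toll-like receptors, Hpse encodes heparanase, and Ms4a7 is expressed by macrophages. Glipr1 had 6.20 on each 4-week array, 6.63, 6.09 and 6.26 on the OVA arrays and 6.49, 5.87 and 5.30 on the arrays labelled control. As the profiles share the arrays and the normalization, this order is a description of these 9 arrays.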

How the data were processed

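Total RNA of nasal mucosa was labelled and hybridised to Affymetrix arrays, following the labels' protocols. The authors deposited log2 values, 1 for each probe set and array, which the submitters' processing notes attribute to RMA without a version. The log2 scale was read from the range, 1.63 to 13.8. No detection calls come with the table, so signal over background is unknown. Gene symbols came from GEO's platform annotation, and the 23410 of 35556 rows that have one were tested. A single model over the 9 arrays was fitted with limma (version 3.58.1 under R 4.3.3) through lmFit, contrasts.fit, then eBayes. It had a mean for each group, two-sided tests, Benjamini-Hochberg adjustment within each comparison and a threshold of 0.05. The fit was tested on simulated data. The number of arrays limits the precision.

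Members and lists were chosen with earlier results of these data known. Besides the members, a list's genes were named if called in any comparison or among its 2 smallest p, along with the 10 genes nearest in pattern (without pseudogenes, receptor families, small RNAs or predicted transcripts). Alternatives were quantile normalization, median centring, the upper 60% of probe sets, every row, the compared groups alone, an intensity trend, a replicate block, the mean of a gene's probe sets, and leaving out each array.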

Additional observations from a re-analysis of the deposited data

How the results depend on the processing

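Of 447 refits of the 27 gene and comparison pairs of the 9 genes, 425 kept the direction and the side of the threshold, 4 lost a call (all H2-DMa), 2 gained one (H2-Ab1 and Cd74 without control replicate 1) and 16 changed sign, none of these last with a call. H2-Oa between 4 weeks and control had 0.0254 after quantile normalization and H2-Ab1 between 4 weeks and OVA 0.000625 after median centring. With single arrays left out, OVA minus control ran from −0.44 to 0.38 for H2-Aa and from −0.14 to 0.30 for H2-Eb1. Likewise 4-week minus OVA ran from −0.056 to 0.41 for H2-Aa and from −0.13 to 0.0641 for H2-Ab1, and 4-week minus control from −0.22 to 0.60 for H2-Aa, −0.33 to 0.11 for H2-Eb1, −0.0213 to 0.11 for Cd80 and −0.0035 to 0.17 for Cd86. The number of the 9 genes called between 4 weeks and control was 0 with the compared groups only and 0 to 3 without an array, against 1; in the other two comparisons it stayed at 0 throughout, with 2 genes (OVA minus control) and 1 gene (4-week minus OVA) at an unadjusted p under 0.05. Probe sets called numbered 305 for OVA minus control, 1481 for 4-week minus OVA and 3364 for 4-week minus control. With the compared groups only they were 109, 737 and 2054, and with every row 143 for OVA minus control; without an array they ranged from 63 to 305, 446 to 1361 and 1560 to 2966. The cause was not tested, beyond the fewer samples and more rows. The higher share of calls in OVA minus control was 60% and after quantile normalization 49.5%. Same-numbered arrays of different groups had deviations correlated at a median r of 0.15 (5 of 9 pairs over 0.1), against −0.05 for differently numbered ones (3 of 18). As not every same-numbered pair was over 0.1, the numbers were not taken as pairs. With the replicate block 213, 1397 and 3271 probe sets were called, and H2-DMa kept its call (adjusted p = 0.0274). Dim filtering dropped H2-Oa, Ciita, Cd80 and Cd86, which then have no value.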
